A study of Mus musculus with 6 samples.

Results

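The 10 genes described here encode the MHC class I molecule and the machinery that supplies it with peptides: *H2-K1*, *H2-D1*, *B2m*, *Tap1*, *Tap2*, *Tapbp*, *Psmb8*, *Psmb9*, *Psmb10* and *Nlrc5*. They were chosen by name, and all 10 were found among the 24346 gene symbols measured. RNA was sequenced from osteoclast precursors, sorted as CX3CR1-EGFP+ cells from the calvarial bone marrow of knock-in mice whose *Cx3cr1* locus drives the green reporter. All 6 mice were injected with lipopolysaccharide (LPS, 20 mg/kg) at the calvarial periosteum, an inflammatory stimulus to bone loss. From that day, 3 mice were given the JAK inhibitor ABT-317 by mouth (60 mg/kg, 2 doses per day for 5 days) and 3 were given vehicle; strain background, age and sex of these mice are not given in the sources used here. The labels describe the samples as treated cells, although it was the mice that were treated.

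MHC class I molecules display peptides from inside the cell to CD8+ T cells. A heavy chain, such as the products of *H2-K1* and *H2-D1*, pairs with the light chain beta-2 microglobulin, and peptides cut by the proteasome are carried into the endoplasmic reticulum by the TAP transporter and loaded with the help of tapasin. Interferons, which signal through JAK kinases, are known inducers of these genes, of the transactivator NLRC5 and of the immunoproteasome, a proteasome whose catalytic subunits are exchanged for those encoded by *Psmb8*, *Psmb9* and *Psmb10*. The comparison asks whether transcripts of this machinery differed in the precursors when a JAK inhibitor was given during LPS-induced inflammation.

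Expression was given as FPKM, fragments per gene corrected for the length of the transcript and the size of the library, which summed to 758529, 688372 and 739909 in JAK inhibitor mice 1 to 3 and to 775790, 740921 and 752098 in vehicle mice 1 to 3. Read counts were not analysed here, so the absolute depth is unknown. Vehicle mouse 3 stood apart from the other 5 libraries. Its log2(FPKM + 1) values had a mean Pearson r across genes of 0.966 with those of the other libraries, against 0.975 to 0.979 for the rest. Its FPKM of *Cx3cr1* was 15.5, against 30.1 and 31.5 in vehicle mice 1 and 2 and 30.1, 29.5 and 36.1 in JAK inhibitor mice 1 to 3. The monocyte markers *Lyz2* (FPKM of 23899 to 32890.2) and *Csf1r* (FPKM of 355 to 422) were abundant in every mouse. By mean FPKM, *Lyz2*, *Ly6c2* and *Csf1r* ranked 1, 10 and 331 of 11301. *Tnfrsf11a*, the receptor for the osteoclast cytokine RANKL, had 2.70 to 8.09 FPKM and *Fcgr1* 2.73 to 12.2, at ranks 8289 and 7397. The neutrophil granule genes *Mpo* and *Elane* ranked 8 and 16, and the neutrophil marker *Cxcr2* ranked 7327. *Fcgr1* had a log2 fold change of -1.15 without overlap (limma adjusted p = 0.102). *Ly6c2*, *Csf1r*, *Tnfrsf11a*, *Fcgr1*, *Mpo*, *Elane* and *Cxcr2* were named after their values were seen.

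None of the 10 genes passed the test between JAK inhibitor and vehicle. At an adjusted p under 0.05 in limma, 0 of the 10 were called, against 0.133% of the 11301 tested genes. At an unadjusted p under 0.05, 0 were lower and 0 were higher, where 9.4% of all tested genes were lower and 6.57% were higher. In 0 of the 10 did the groups separate without overlap, which 12.1% of all tested genes did on the lower side and 9.92% on the higher side. That count was 2 with quantile normalization, 4 without vehicle mouse 1, 3 without JAK inhibitor mouse 1, 1 without JAK inhibitor mouse 2 and 1 without JAK inhibitor mouse 3; of all tested genes, 22.6%, 32.6%, 31.6%, 32.0% and 31.3% separated in these analyses. Estimates were lower for 4 genes and higher for 6, from -0.16 for *Psmb10* to 0.22 for *Psmb9* on the log2(FPKM + 1) scale. The median was 0.04 (-0.04 to 0.09 with 1 mouse left out), beside -0.0035 for all tested genes. All 10 of the 95% confidence intervals lay within a 2-fold change in either direction. The exact 2-sided permutation test gave p from 0.2 to 0.9 for single genes, where 0.1 is the smallest that 3 mice against 3 allow. In bulk samples, fewer cells of a type and less RNA per cell cannot be told apart.

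**Figure D1:**
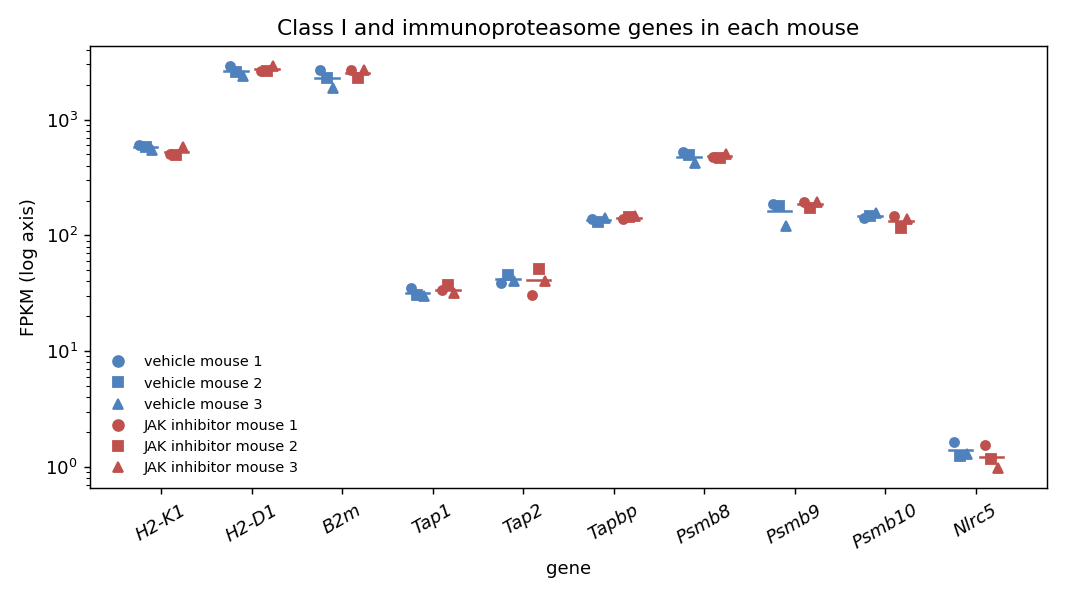
FPKM of the 10 genes on a log axis, 1 point per mouse (blue, vehicle; red, JAK inhibitor; symbols mark mouse 1, 2 and 3) with a line at each group mean. The groups overlap for each gene, levels run from about 1 FPKM for *Nlrc5* to 1878 and more for *H2-D1* and *B2m*, and vehicle mouse 3 has the lowest value of *H2-D1*, *B2m*, *Tap1*, *Psmb8* and *Psmb9*.

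The heavy and light chains were among the most abundant transcripts of these cells. *H2-D1*, a classical heavy chain gene (chromosome 17, 35263094 to 35267497, RefSeq on GRCm38.p6), ranked 20 of 11301 by mean FPKM. *B2m*, the light chain shared by all class I molecules (chromosome 2, 122147687 to 122153082), ranked 28, and its values overlapped with those of *H2-D1*. *H2-K1*, the other classical heavy chain gene (chromosome 17, 33996012 to 34000619), ranked 225.

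The FPKM of *H2-K1* was 601, 580.2 and 549 in vehicle mice 1 to 3 and 502, 498 and 583 in JAK inhibitor mice 1 to 3. JAK inhibitor mouse 3 lay among the vehicle mice, so the groups overlapped. Vehicle mice had a mean of 577 ± 25.9 (SD, n = 3) and JAK inhibitor mice of 527 ± 48.0 (SD, n = 3), and the log2 fold change was -0.13 (95% interval -0.34 to 0.08, limma adjusted p = 0.521). The estimate lay between -0.21 and -0.09 in each of the 14 alternative analyses. *H2-D1* had an FPKM of 2899, 2569 and 2366 with vehicle and of 2615, 2616 and 2904 with JAK inhibitor. Its log2 fold change was 0.06 (95% interval -0.17 to 0.29, limma adjusted p = 0.823) and -0.01 without vehicle mouse 3. *B2m* had an FPKM of 2663, 2269 and 1878 in vehicle mice 1 to 3 and of 2664, 2305 and 2660.1 in JAK inhibitor mice 1 to 3. Vehicle mouse 3 was the lowest and the other 5 mice were intermixed. The log2 fold change of *B2m* was 0.18 (95% interval -0.13 to 0.48, limma adjusted p = 0.559), 0.05 without that mouse and 0.30 without vehicle mouse 1.

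Promoter sequence of *B2m* is shown because its product is the light chain of class I molecules and the gene is commonly described as interferon-responsive. RefSeq on GRCm38.p6 gave 250 bases before a listed start for 8 of the 10 genes, and a window is printed where at most 30 of its bases lie in an exon of GENCODE M21 or in the RefSeq span of its own gene, which left 1. Capitals mark matches on either strand to AANNGAAA (a core of sites for interferon regulatory factors), TTCNNNGAA (a STAT-type palindrome), ATTGG (the inverted CCAAT box) and TGACG (the core of the cyclic AMP response element). AANNGAAA replaced a stricter pattern after the windows were seen, and kappa B sites are not reported.
*B2m*, chr2:122147437-122147686, plus strand: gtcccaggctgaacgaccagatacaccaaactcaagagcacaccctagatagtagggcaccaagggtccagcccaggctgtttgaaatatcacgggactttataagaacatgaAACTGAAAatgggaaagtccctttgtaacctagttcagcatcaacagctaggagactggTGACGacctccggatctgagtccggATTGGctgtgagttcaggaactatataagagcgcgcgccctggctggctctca
The *B2m* window held 1 match each to AANNGAAA, TGACG and ATTGG. *H2-K1* has 2 listed starts, both inside its RefSeq span, so its windows are counted and not printed. The window of the first start held 1 match each to AANNGAAA, TGACG and ATTGG; that of the second held 2 to ATTGG and the same number to the other motifs. With the first start of each gene, 3 of the 8 windows held AANNGAAA, those of *B2m*, *H2-K1* and *H2-D1*, against 21.3% of all 32851 promoter windows of this length. TTCNNNGAA was found in 1 of the 8, that of *Psmb8*, against 7.02% of all windows. ATTGG was found in 6 of the 8 and TGACG in 5 of the 8, against 33.8% and 17.8% of all windows. The windows of *Psmb9* and *Tap1* share 225 of their bases, so that 1 stretch counts for both genes, and 5 of the 8 windows lie wholly in exons of GENCODE M21. A match describes the letters of a window and is not a measured binding site.

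Classical heavy chains resemble other genes of the family, so reads can be split between them. Of the 75-base windows of the longest coding transcript in GENCODE M21, 1.55% of *H2-K1* and 7.10% of *H2-D1* were also found in a transcript of another gene, against 21.7% of *H2-Q7*, 21.1% of *H2-Q6*, 21.7% of *H2-Q4* and 17.3% of *H2-Q1*. Sharing genes included *H2* genes for *H2-Q7*, *H2-Q6* and *H2-Q1*. Not all were of the family: *D10Wsu102e* was among those of *H2-Q6*, and those of *H2-Q4* included *Gm11131*, *Olfr204* and *Cd200r3*. Values of these *H2-Q* genes are therefore uncertain one by one. *H2-Q2* and *H2-Q10* shared 1.01% and 4.64%, and *H2-Q5*, *H2-Q8* and *H2-Q9* were not examined in this way. Among the other members, *Tapbp* shared 17.5% (with *Gm19412* and *AC122861.4*), and *Psmb9* 10.8% and *Tap1* 4.79% (with each other). *Tap2* shared 8.97% (with *Gm15821* and *Gm20496*) and *Psmb8* 3.22% (with *Gm20496*). *B2m*, *Psmb10* and *Nlrc5* shared 0%. The summed FPKM of *H2-K1*, *H2-D1*, *H2-L* and 9 *H2-Q* genes was 3536, 3189 and 2949.8 in vehicle mice 1 to 3 and 3141, 3136 and 3512 in JAK inhibitor mice 1 to 3. The groups overlapped, with a log2 difference of 0.02 (exact 2-sided permutation test, p = 1). *H2-K1* and *H2-D1* made up 98.7% to 99.3% of that sum. The 9 *H2-Q* genes alone summed to 34.4, 36.4 and 31.2 with vehicle and to 22.5, 21.4 and 22.955 with JAK inhibitor, a log2 difference of -0.61. All JAK inhibitor mice lay below all vehicle mice (exact 2-sided permutation test, p = 0.1, the smallest possible); this sum was computed after the values were seen.

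Of 34 other class I heavy chain genes, 18 were tested and 10 were listed at 0 in every mouse. At an unadjusted p under 0.05, 2 were lower and 4 were higher (9.4% and 6.57% of all tested genes), and 0 passed the adjusted threshold. The lower count ranged from 1 to 4 and the higher count from 2 to 5 over the 14 alternatives, and 2 were higher in all runs with 1 mouse left out but that without vehicle mouse 2. Over all tested genes, the lower count ranged from 799 to 1100 and the higher count from 525 to 888 in the alternatives, against 1062 and 742 in the main analysis. *H2-Q7* had an FPKM of 12.3, 11.5 and 10.29 with vehicle and of 5.08, 9.17 and 6.07 with JAK inhibitor (log2 fold change -0.70, limma adjusted p = 0.154). *H2-Q8* had overlapping groups, with a log2 fold change of -1.51, and was listed at 0 in JAK inhibitor mouse 3; the estimate was -2.70 with a pseudocount of 0.1 and -0.98 without that mouse. The higher genes included *Fcgrt*, the neonatal Fc receptor, with 28.5, 29.1 and 20.8 FPKM in vehicle mice and 54.5, 52.1 and 47.8 in JAK inhibitor mice. Its log2 fold change was 0.97 (95% interval 0.65 to 1.28, limma adjusted p = 0.0516) and 0.81 without vehicle mouse 3. *Fcgrt* passed the adjusted threshold in 7 of the 14 alternatives, with adjusted p from 0.0182 to 0.0445 in these. *Hfe*, a regulator of iron uptake, had a log2 fold change of 0.87 (limma adjusted p = 0.109) and 0.64 without vehicle mouse 3, and both genes had groups that did not overlap. *H2-T23*, which encodes Qa-1, overlapped between the groups, with an estimate of 0.42 (limma adjusted p = 0.261) that was 0.26 without vehicle mouse 3. Products of *Fcgrt*, *Hfe* and *H2-T23* pair with beta-2 microglobulin.

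Peptide transport and loading genes lay at intermediate levels. *Tap1* and *Tap2* encode both chains of the TAP transporter and lie with *Psmb8* and *Psmb9* in a stretch of 34.3 kb of chromosome 17. The FPKM of *Tap1* (chromosome 17, 34187556 to 34197225) was 35.1, 30.2 and 29.9 with vehicle and 33.4, 37.0 and 31.7 with JAK inhibitor. That of *Tap2* (chromosome 17, 34204479 to 34216321) was 39.1, 45.6 and 40.3 with vehicle and 30.4, 51.2 and 40.7 with JAK inhibitor. JAK inhibitor mice 1 and 2 had the lowest and the highest *Tap2* of all 6 mice, and levels of *Tap1* and *Tap2* overlapped. *Tapbp*, the gene of tapasin (chromosome 17, 33919478 to 33929290), ranged from 130.1 to 147 FPKM. The log2 fold changes were 0.10 for *Tap1* (95% interval -0.15 to 0.35), -0.06 for *Tap2* (95% interval -0.45 to 0.33) and 0.06 for *Tapbp* (95% interval -0.12 to 0.25). That of *Tap2* was 0.13 without JAK inhibitor mouse 1, and that of *Tap1* was 0.04 without JAK inhibitor mouse 2 and 0.17 without vehicle mouse 1. A list of 12 further genes covered loading, trimming and the proteasome cap, and 12 were tested. At an unadjusted p under 0.05, 0 were lower and 0 were higher (9.4% and 6.57% of all tested genes). The median log2 fold change was -0.0048. *Psme1* and *Psme2*, which encode the interferon-inducible cap, had log2 fold changes of -0.04 and 0.09; that of *Psme1* was 0.02 with quantile normalization.

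Immunoproteasome subunits were expressed at 115 FPKM or more in every mouse. *Psmb8* (chromosome 17, 34198195 to 34201454) had an FPKM of 521, 494 and 424 in vehicle mice 1 to 3 and of 479, 469 and 502 in JAK inhibitor mice 1 to 3. The log2 fold change was 0.02 (95% interval -0.20 to 0.23). The estimate was -0.07 without vehicle mouse 3. *Psmb9* (chromosome 17, 34182030 to 34187330) had 185, 181 and 121 with vehicle and 195, 171 and 193 with JAK inhibitor. Vehicle mouse 3 was again the lowest, and the log2 fold change of 0.22 (95% interval -0.13 to 0.58, limma adjusted p = 0.527) became 0.03 without it. *Psmb10* (chromosome 8, 105935728 to 105938392) had 142, 148 and 155 with vehicle and 147, 115 and 138 with JAK inhibitor, which gives a log2 fold change of -0.16 (95% interval -0.40 to 0.08, limma adjusted p = 0.511) that was -0.06 without JAK inhibitor mouse 2. Here vehicle mouse 3 had the highest value, unlike for *Psmb8* and *Psmb9*. *Psmb9* and *Tap1* overlap on opposite strands in GENCODE M21, and the strand of the reads is uncertain, so reads of the shared stretch could have been counted for either. The same holds for *B2m* with *Patl2* and *Nlrc5* with *9330175E14Rik*. *Tap2* overlaps *Gm15821* and *Gm20496*, *Tapbp* overlaps *Gm19412* and *Psmb8* overlaps *Gm20496* on opposite strands. These neighbours are absent from the measured symbols, so reads from them could have been added to the class I gene. *Psmb10* overlaps *Gm16156*, also absent, on the opposite strand, with 0% of its windows shared. *Zbtb22* overlaps *Tapbp* and *Mir7072* overlaps *Nlrc5* on the same strand.

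*Nlrc5* (chromosome 8, 94434335 to 94527272) encodes the transactivator of class I genes and had the lowest level of the 10, ranking 10143 of 11301. Its FPKM was 1.63, 1.24 and 1.285 with vehicle and 1.54, 1.165 and 0.971 with JAK inhibitor. The log2 fold change was -0.10 with the widest interval of the 10, from -0.57 to 0.37. It was -0.18 with a pseudocount of 0.1 and -0.02 without JAK inhibitor mouse 3.

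**Figure D2:**
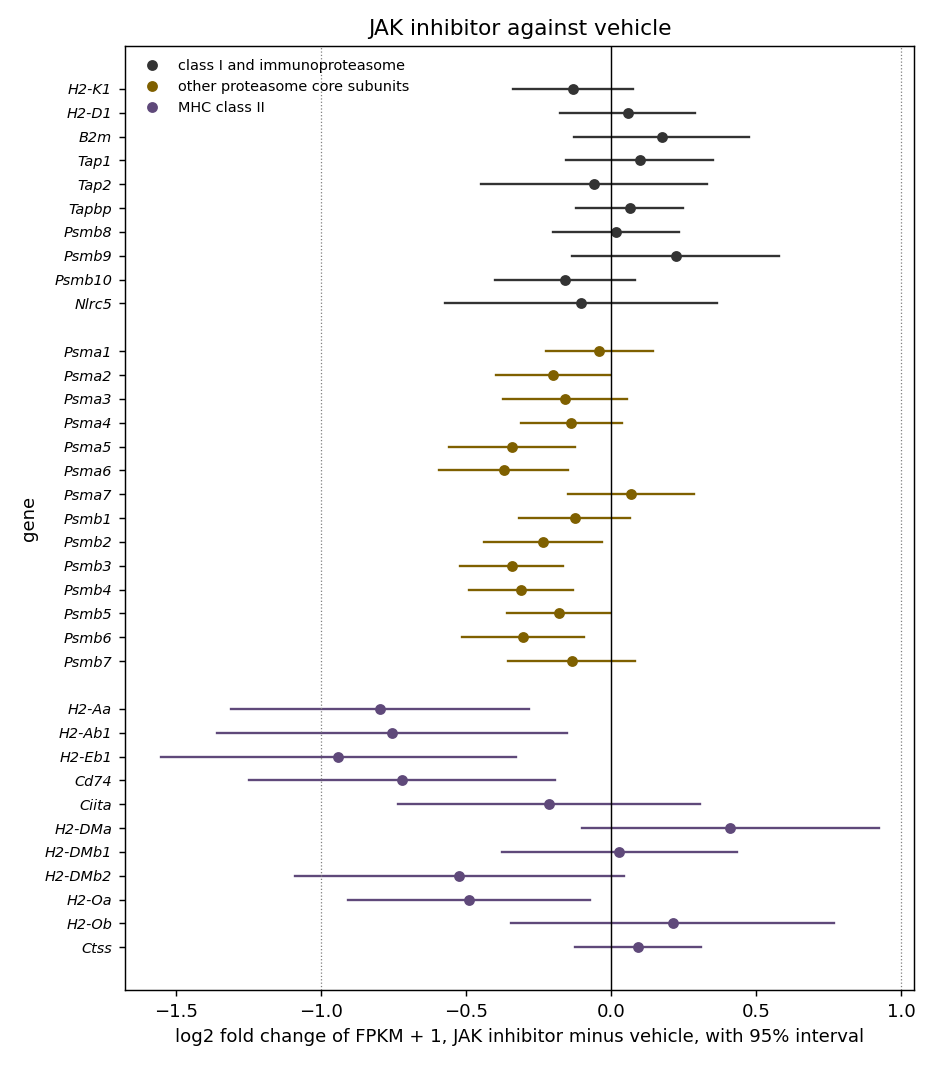
Log2 fold changes of FPKM + 1, JAK inhibitor minus vehicle, with 95% confidence intervals from limma, for the 10 class I and immunoproteasome genes, 14 other proteasome core subunits and 11 MHC class II genes; dotted lines mark 2-fold. The intervals of the first group all include 0. Intervals lie below 0 for 8 of the core subunits and 5 of the class II genes, where 9.4% of all tested genes were lower at an unadjusted p under 0.05. In each list 0 genes passed the adjusted threshold, and differences between the lists were not tested.

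Other subunits of the proteasome core were examined in the same way. Of 14 core genes, which comprise the replaced catalytic subunits *Psmb5*, *Psmb6* and *Psmb7* and 11 subunits common to both proteasome forms, 8 were lower and 0 were higher at an unadjusted p under 0.05, and 0 passed the adjusted threshold. Estimates were below 0 for 13 of the 14, with a median of -0.19, and 10 had groups that did not overlap, all on the lower side. Over all tested genes, 9.4% were lower and 12.1% separated on that side, and the difference between the class I and core lists was not tested. *Psmb3* had the smallest p, with a log2 fold change of -0.34 (95% interval -0.52 to -0.17, limma adjusted p = 0.113). *Psmb4*, *Psma6*, *Psma5* and *Psmb6* had log2 fold changes of -0.31, -0.37, -0.34 and -0.30, each with groups that did not overlap. *Psmb5* had -0.18, or -0.12 with quantile normalization. *Psmb7*, whose groups overlapped, had -0.13, or -0.07 without vehicle mouse 1 and -0.21 without vehicle mouse 2. The count of 8 was 5 without vehicle mouse 3, 5 without vehicle mouse 1, 5 without JAK inhibitor mouse 2 and 6 with quantile normalization. Of all 11301 tested genes, 884, 941, 799 and 918 were lower in these analyses, against 1062 in the main one.

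A ratio within a mouse does not depend on the scaling of its library, so each immunoproteasome subunit was divided by the subunit it replaces. The ratio of *Psmb8* to *Psmb5* was 1.21, 1.20 and 0.998 in vehicle mice 1 to 3 and 1.24, 1.32 and 1.33 in JAK inhibitor mice 1 to 3. The ratio of *Psmb9* to *Psmb6* was 0.404, 0.436 and 0.265 with vehicle and 0.555, 0.518 and 0.489 with JAK inhibitor. Both ratios were higher in all JAK inhibitor mice than in any vehicle mouse, by 0.20 and 0.53 on the log2 scale. The exact 2-sided permutation test gave p = 0.1 for each, the smallest possible, and 0.15 when adjusted over the 3 pairs, so neither passed a threshold of 0.05. The log2 fold changes were 0.02 and 0.22 for *Psmb8* and *Psmb9* and -0.18 and -0.30 for *Psmb5* and *Psmb6*. Without vehicle mouse 3, the log2 differences of the ratios were 0.11 and 0.31. In that analysis *Psmb8* and *Psmb9* had log2 fold changes of -0.07 and 0.03, and *Psmb5* and *Psmb6* of -0.18 and -0.28. The ratio of *Psmb10* to *Psmb7* overlapped between the groups, with 1.06, 1.34 and 1.23 in vehicle mice and 1.26, 1.07 and 1.23 in JAK inhibitor mice (log2 difference -0.02, exact 2-sided permutation test, p = 1).

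**Figure D3:**
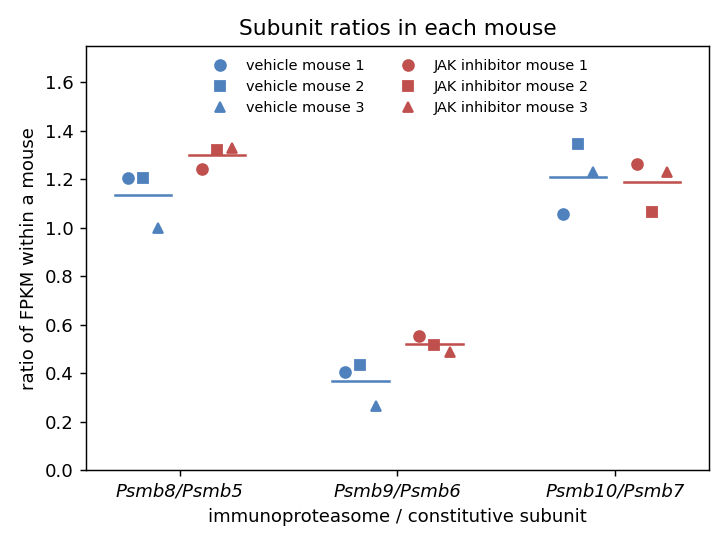
Ratio of FPKM of each immunoproteasome subunit to the subunit it replaces, 1 point per mouse (blue, vehicle; red, JAK inhibitor) with a line at each group mean, on a linear axis from 0. JAK inhibitor mice lie above vehicle mice for *Psmb8* to *Psmb5* and *Psmb9* to *Psmb6*, with vehicle mouse 3 lowest in both, and the groups overlap for *Psmb10* to *Psmb7*.

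MHC class II genes, which present extracellular peptides to CD4+ T cells, were set beside those of class I. Of 11 tested class II genes, 5 were lower and 0 were higher at an unadjusted p under 0.05 (9.4% and 6.57% of all tested genes), with 0 past the adjusted threshold, 4 of the 11 estimates above 0 and a median log2 fold change of -0.49 (-0.63 to -0.26 with 1 mouse left out). *H2-Aa* had an FPKM of 176, 248 and 124 with vehicle and of 120.4, 86.0 and 98.6 with JAK inhibitor, without overlap (log2 fold change -0.80, limma adjusted p = 0.157). *H2-DMa*, named after its values were seen, was apart on the other side, with 110.1, 117 and 58.7 in vehicle mice and 122, 119 and 124 in JAK inhibitor mice (log2 fold change 0.41, and 0.10 without vehicle mouse 3). *H2-Eb1*, *Cd74*, *H2-Ab1* and *H2-Oa* had log2 fold changes of -0.94, -0.72, -0.76 and -0.49, and their groups overlapped; that of *H2-Ab1* was -1.07 without vehicle mouse 3. The count of 5 was 2 without vehicle mouse 1, 2 without vehicle mouse 2, 2 without JAK inhibitor mouse 3, 3 without JAK inhibitor mouse 2 and 2 with no filter on low values. Over all tested genes, 941, 1066, 809 and 799 of 11301 and 1094 of 24346 were lower in these analyses, against 1062 of 11301 in the main one. The difference between the class I and class II lists was not tested. Of 9 tested macrophage markers, 5 were lower and 0 were higher at an unadjusted p under 0.05 (9.4% and 6.57% of all tested genes). The estimate was above 0 for 1 of the 9. The summed FPKM of all 10 listed macrophage markers was 461, 443 and 286 in vehicle mice and 241, 142 and 166 in JAK inhibitor mice, with *C1qb* the most abundant (log2 fold change -1.78, limma adjusted p = 0.0721). *C1qb* passed the adjusted threshold in 4 of the 14 alternatives, with adjusted p from 0.0158 to 0.0492 in these. The part of the macrophage markers in the class II values was not tested.

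None of the regulators of class I genes passed the test. Of 26 tested genes for interferon receptors, JAK and STAT proteins and transcription factors, 5 were lower and 3 were higher at an unadjusted p under 0.05 (9.4% and 6.57% of all tested genes), 0 passed the adjusted threshold, and the median was -0.04. The lower count was 3 without JAK inhibitor mouse 2, where 799 of all 11301 tested genes were lower, against 1062 in the main analysis. *Irf1*, a transcription factor of class I promoters, had 55.7, 51.8 and 56.9 with vehicle and 45.0, 41.8 and 48.8 with JAK inhibitor, without overlap (log2 fold change -0.27, limma adjusted p = 0.225). *Stat3*, *Irf9* and *Rfxap* had log2 fold changes of -0.35, -0.54 and -0.36, each without overlap. *Ifnar2*, a chain of the type I interferon receptor, and *Irf8*, a transcription factor of the monocyte lineage, had 0.28 and 0.64 without overlap; that of *Irf8* was 0.39 without vehicle mouse 3. *Rfx5*, which binds class I and class II promoters, had 0.23 with overlapping groups and 0.0050 without JAK inhibitor mouse 2.

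Interferon-induced antiviral genes were mostly low in these cells. Of 25 listed genes, 22 were tested. At an unadjusted p under 0.05, 6 were lower and 1 was higher (9.4% and 6.57% of all tested genes). The median was -0.24. With 1 mouse left out, the lower count was 4 to 9, and 799 to 1066 of all 11301 tested genes were lower, against 1062 in the main analysis. Of the 6, 3 were below 1 FPKM in every JAK inhibitor mouse and passed the filter on vehicle values alone. With at least 1 FPKM in at least 3 mice, 4 of 18 were lower (1026 of 10486 over all tested genes). Among these was *Rtp4*, which passed that filter on vehicle values alone as well. *Oas1a*, which encodes a sensor enzyme of double-stranded RNA, passed the adjusted threshold (log2 fold change -1.29, limma adjusted p = 0.0359). Its FPKM was 8.31, 9.02 and 10.63 in vehicle mice and 3.02, 4.04 and 2.63 in JAK inhibitor mice, without overlap. It no longer passed in any analysis that left out 1 mouse, without the trend or with no filter, with adjusted p from 0.0587 to 0.282 and a log2 fold change between -1.43 and -1.19 in these. *Rtp4* had a log2 fold change of -1.43 (limma adjusted p = 0.0665) and -2.35 with a pseudocount of 0.1, so its size is uncertain: FPKM was 0.424, 0.521 and 0.642 with JAK inhibitor and 2.198 to 4.16 with vehicle; it passed in 3 of the 14 alternatives. *Ddx58* and *Parp9* had log2 fold changes of -0.63 and -0.39, and all 3 genes were without overlap. *Dtx3l*, the partner of *Parp9*, had 0.34 in the other direction.

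**Figure D4:**
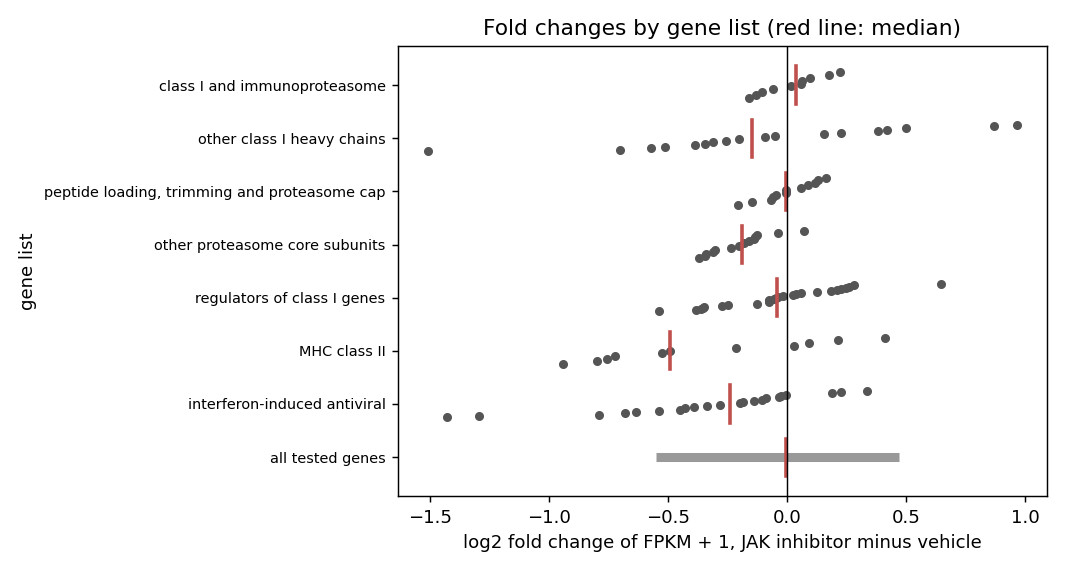
Log2 fold change of FPKM + 1, JAK inhibitor minus vehicle, 1 point per tested gene sorted within each list, with a red line at the list's median; the grey bar covers the 5th to 95th percentile of all tested genes. Class I and immunoproteasome genes lie near 0 (median 0.04, or -0.04 to 0.09 with 1 mouse left out). The medians of the core subunits, class II and antiviral lists are -0.19, -0.49 and -0.24.

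Markers of other cells of the marrow were examined in the same libraries. Over all tested genes, 9.4% were lower and 6.57% were higher at an unadjusted p under 0.05. Of 10 tested neutrophil markers, 2 were lower and 3 were higher at an unadjusted p under 0.05, and the most abundant, *S100a8*, had its highest FPKM, 15469, in vehicle mouse 3, against 4970.4 to 10790 in the others. Neutrophil markers past the unadjusted threshold were *Mpo*, *Elane* and *Camp*, with log2 fold changes of 0.93, 1.12 and 1.64, and *Mmp8* and *Cxcr2*, with -1.06 and -0.80, each without overlap. Without vehicle mouse 3, these were 0.53, 0.70, 1.44, -0.77 and -0.53, and *Elane* passed the adjusted threshold (limma adjusted p = 0.0424); *Camp* passed with library weights (limma adjusted p = 0.0385). Among 9 tested T and NK cell markers, 2 were lower and 1 was higher. Of the 2, *Prf1* passed the filter on vehicle values alone. With at least 1 FPKM in at least 3 mice, 3 were tested, 1 was lower and 1 was higher (1026 and 738 of 10486 over all tested genes). *Nkg7*, the most abundant, had 328, 363 and 167 FPKM with vehicle and 557, 499 and 489 with JAK inhibitor. Estimates were lower for 6 of the 9, among them *Gzma* at -2.09 with overlap and *Prf1* at -0.98 without, the latter below 1 FPKM in every JAK inhibitor mouse. With a pseudocount of 0.1 these were -3.26 and -2.47, and *Gzma* was -1.16 without JAK inhibitor mouse 3, so their size is uncertain; *Cd3e* and *Cd8a* stayed below 1 FPKM in every mouse; *Gzma*, *Prf1* and these neutrophil markers were named after their values were seen. The B cell markers *Ms4a1*, *Pax5* and *Ebf1* were listed at 0 in every mouse, although *Cd79b* had 26.7 to 35.4 FPKM, and 0 of 3 tested markers were called. Of 10 tested monocyte and osteoclast precursor markers, 2 were lower and 0 were higher. Among dendritic cell markers, of which *Bst2* was the most abundant with 35.0 to 59.5 FPKM, 0 of 7 tested were lower and 1 was higher. Erythroid markers were low apart from *Hba-a1*, at 38.6 FPKM in JAK inhibitor mouse 3 and 2.64 or less in the others, and 2 of 5 tested were higher; *Hba-a1*, 1 of these, was below 1 FPKM in every vehicle mouse and passed the filter on JAK inhibitor values alone. Stromal and endothelial markers were below 1 FPKM in every mouse except *Pecam1*, at 11.4 to 34.4 FPKM, which was higher at an unadjusted p under 0.05. The part of such cells in the values of the 10 genes was not tested.

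The 10 genes did not share 1 pattern over the 6 mice. Pearson r with the mean standardized level of the other 9 was 0.95 for *H2-D1*, 0.91 for *Psmb8*, 0.82 for *B2m* and 0.68 for *Psmb9*, whereas it was -0.41 for *Psmb10* and -0.33 for *Tap2*. These values describe 6 mice and share the same libraries. Among 7627 genes outside the lists with a mean FPKM of at least 5, those most like the mean of the 10 were *Hat1*, *Nup43*, *2810025M15Rik*, *Elavl1* and *l7Rn6*, with r from 0.969 to 0.990 over the 6 mice. The FPKM of *Hat1* was 117, 104 and 94.8 in vehicle mice and 105, 106 and 114 in JAK inhibitor mice, highest in vehicle mouse 1 and lowest in vehicle mouse 3, as was the mean of the 10.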

How the data were processed

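The authors deposited 1 table of FPKM values per mouse; the submitters' processing notes name TopHat2 2.0.13, Bowtie2 2.2.3, SAMtools 0.1.19, Cufflinks 2.2.1 and mm10, which is GRCm38. Any further scaling, and the annotation, are not given in the sources used here. The labels name a SMART-Seq HT and Nextera library, which keeps no strand, while the methods name a stranded kit. From the deposited FPKM, log2(FPKM + 1) of 11301 genes with at least 1 FPKM in at least 1 mouse was compared with limma 3.58.1 in R 4.3.3 (trended empirical Bayes; p adjusted by Benjamini-Hochberg over all tested genes). Single values had exact 2-sided permutation tests (SciPy 1.17.1). The model was first tested on simulated data. From low values, relative depths were within 1.17-fold of each other, a rough estimate. Of the symbols, 95.1% matched RefSeq.

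Named genes are the 10; up to 5 per pathway list with the smallest p under 0.05; *Psmb5*, *Psmb6*, *Psmb7*, *Irf1*, *Rfx5*, *Psme1* and *Psme2*; 5 genes by likeness; *Cx3cr1*; and the most abundant gene of each marker list. Another gene that the rule names is not reported here. The 10 genes and the lists were chosen with earlier results of these data known. Alternatives were a pseudocount of 0.1, other filters, quantile normalization, scaling by the median ratio, no trend, library weights, a replicate block and each mouse left out; for the ratios and sums, a pseudocount of 1, another reference and more genes.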

Additional observations from a re-analysis of the deposited data

How the results depend on the processing

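None of the 10 class I genes passed an adjusted p of 0.05 in limma under any of the 14 alternatives. At an unadjusted p under 0.05, the count was 1 (*B2m*) with quantile normalization and 0 in the other 13. Signs near 0 changed: the log2 fold changes of *Psmb8* and *Lyz2* were -0.030 and -0.045 with library weights, that of *Psme1* was 0.017 with quantile normalization, and the log2 difference of *Psmb10* was 0.041 with the mean of the core subunits as the reference. The cause was not tested.

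With 1 mouse left out, log2 fold changes ranged from -0.21 to -0.092 for *H2-K1*, from -0.011 to 0.14 for *H2-D1*, from 0.046 to 0.30 for *B2m*, from 0.038 to 0.17 for *Tap1*, from -0.23 to 0.13 for *Tap2*, from 0.033 to 0.090 for *Tapbp*, from -0.069 to 0.078 for *Psmb8*, from 0.026 to 0.33 for *Psmb9*, from -0.23 to -0.057 for *Psmb10*, from -0.20 to -0.020 for *Nlrc5*, from -0.10 to 0.0029 for *Psme1*, from -0.0251 to 0.16 for *Psme2*, from -0.11 to 0.16 for *Lyz2* and from -0.028 to 0.30 for *Bst2*. The log2 ratio difference of *Psmb10* ranged from -0.12 to 0.055 and that of the summed heavy chains from -0.043 to 0.087.

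Counts depended more on the model. All tested genes past the adjusted threshold numbered 15, against 4 with no filter, 34 with at least 1 FPKM in at least 3 mice, 2 without the trend, 63 with library weights and 1 to 25 with 1 mouse left out. Core subunits lower at an unadjusted p numbered 5 without the trend and 5 to 7 with 1 mouse left out. Lower class II genes numbered 2 with no filter and 2 to 6 with 1 mouse left out. Over all tested genes, 925 of 11301 were lower without the trend, 1094 of 24346 with no filter and 799 to 1066 of 11301 with 1 mouse left out. With the replicate block, 67 genes passed, *Fcgrt*, *C1qb* and *Mmp8* among them, and 0 of the 10 did. Whether same-numbered mice shared more than a number, such as a batch, is not given in the sources used here and was not tested. Their deviations correlated by 0.02, 0.05 and -0.00016, and not every mouse correlated best with its own number. Read depth is unknown, and its limit on low genes such as *Nlrc5* was not tested.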
